A study of Rattus norvegicus with 4 samples.

Results

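The muscle acetylcholine receptor and the proteins that gather around it at the neuromuscular junction were followed in rat soleus, the slow hindlimb muscle that bears weight in standing. The set was 8 genes: the receptor subunits Chrna1, Chrnb1, Chrnd, Chrne and Chrng, the receptor-clustering kinase Musk, the esterase Ache and the adhesion molecule Ncam1. Every probe set annotated to 1 of these symbols alone was taken, which gave 11 probe sets of the 8740 on the array that are not manufacturer controls. In the unloaded group, hindlimb support was taken away daily for 10 h through an 11-day period, and the control group stood and walked freely in cages. All rats were female, and no strain or age is used here. There were 2 arrays per group. On each array the RNA of 4 to 5 animals had been combined, so the p-values measure the spread between such pools and say nothing of single animals.

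At the junction the motor nerve releases acetylcholine onto a dense patch of receptors in the muscle membrane. The receptor is a ring of alpha, beta and delta subunits together with epsilon in adult muscle or gamma in fetal muscle. Musk, activated by agrin from the nerve, holds the receptors in place, and acetylcholinesterase clears the transmitter. When a muscle loses its nerve supply, receptor subunit genes, the gamma subunit among them, and Ncam1 are known to be switched on along the whole fibre. These are background facts, and none of the present samples was denervated according to its labels.

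Among the 8 genes, Chrnd was the gene that passed the test, and it fell in the unloaded soleus. Of the other subunits, Chrnb1 had higher signals in both unloaded pools and Chrna1, Chrne and Chrng overlapped between the groups, and none of these 4 passed. Ncam1 was read by 2 probe sets that pointed in different directions, and Ache by 3, of which 2 were too dim to test. Musk was dim in every pool.

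The 5 receptor subunit genes are shown here by the 130 bases before the transcript start of RefSeq's promoter table, since the subunits make up one receptor and these windows hold the elements that muscle regulators are known to use. The E-box, CANNTG, is bound by the MyoD family, and the N-box, CCGGAA, is bound by GABP and is known from junctional expression of subunit genes. Capitals mark each match to either motif on either strand (TTCCGG is the N-box read from the other strand). Sequences are from RefSeq, build GRCr8, read 5′ to 3′ along the gene. That start is not always the outer end of the annotated gene: the Chrne window lies inside the gene over all 130 bases, and the Chrnb1 window over 30.
Chrnd (chr9:95310186-95310315, + strand): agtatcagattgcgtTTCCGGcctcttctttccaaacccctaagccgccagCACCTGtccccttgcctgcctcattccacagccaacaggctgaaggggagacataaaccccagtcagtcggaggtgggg
Chrng (chr9:95325854-95325983, + strand): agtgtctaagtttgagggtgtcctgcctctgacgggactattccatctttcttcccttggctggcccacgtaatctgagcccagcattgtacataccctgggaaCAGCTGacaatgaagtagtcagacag
Chrna1 (chr3:78877354-78877483, - strand): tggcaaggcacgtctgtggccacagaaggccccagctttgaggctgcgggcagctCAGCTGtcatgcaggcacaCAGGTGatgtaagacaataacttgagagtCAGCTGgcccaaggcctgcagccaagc
Chrnb1 (chr10:55015108-55015237, - strand): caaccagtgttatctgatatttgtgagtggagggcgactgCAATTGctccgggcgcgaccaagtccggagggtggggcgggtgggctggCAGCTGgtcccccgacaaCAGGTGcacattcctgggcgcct
Chrne (chr10:55834155-55834284, - strand): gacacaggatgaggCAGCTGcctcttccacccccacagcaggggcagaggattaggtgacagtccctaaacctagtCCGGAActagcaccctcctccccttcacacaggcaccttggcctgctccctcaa

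In the 250 bases before the start, Chrnd held 1 E-box (CACCTG, from position -79 to -74) and 1 N-box (from -115 to -110), counting the base before the start as -1. Chrne held 1 E-box (CAGCTG) and 1 N-box (from -54 to -49). Chrna1, Chrnb1 and Chrng each held 3 E-boxes, at least 1 of them CAGCTG, and no N-box letters. A promoter entry was found for 7 of the 8 genes. Musk had 3 E-box matches and Ache 1, neither had an N-box match (the nearest 130 bases of both also lie inside the annotated gene), and Ncam1 was the gene without an entry. An E-box match is common, at 65.5% of all 33469 RefSeq windows of this length, whereas CAGCTG is in 12% and the N-box letters in 12.6%. The 2 windows with N-box letters belong to a subunit that fell, Chrnd, and to one that did not pass, Chrne. A letter match is a description of the window and does not show binding.

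Signals are MAS5 intensities, the linear summary per probe set that the authors deposited, and are given per pool. They describe one probe set across pools and cannot rank one gene above another. Changes are differences in log2(signal + 9), unloaded minus control, with the standard error (SE) or 95% confidence interval and the Benjamini-Hochberg adjusted p of limma across the 5257 tested probe sets. The threshold was 0.05, and a probe set was tested if its mean signal reached 21.0. The arrays had median signals of 35.1 and 34.0 in the unloaded and 35.7 and 34.8 in the control group. Skeletal muscle identity was plain on all arrays: all 8 measured muscle markers were tested, with Acta1 at 7828 and 9160 in unloaded pools and 8413 and 8664 in control pools, and none of them passed (0 at an unadjusted p under 0.05).

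**Figure D1:**
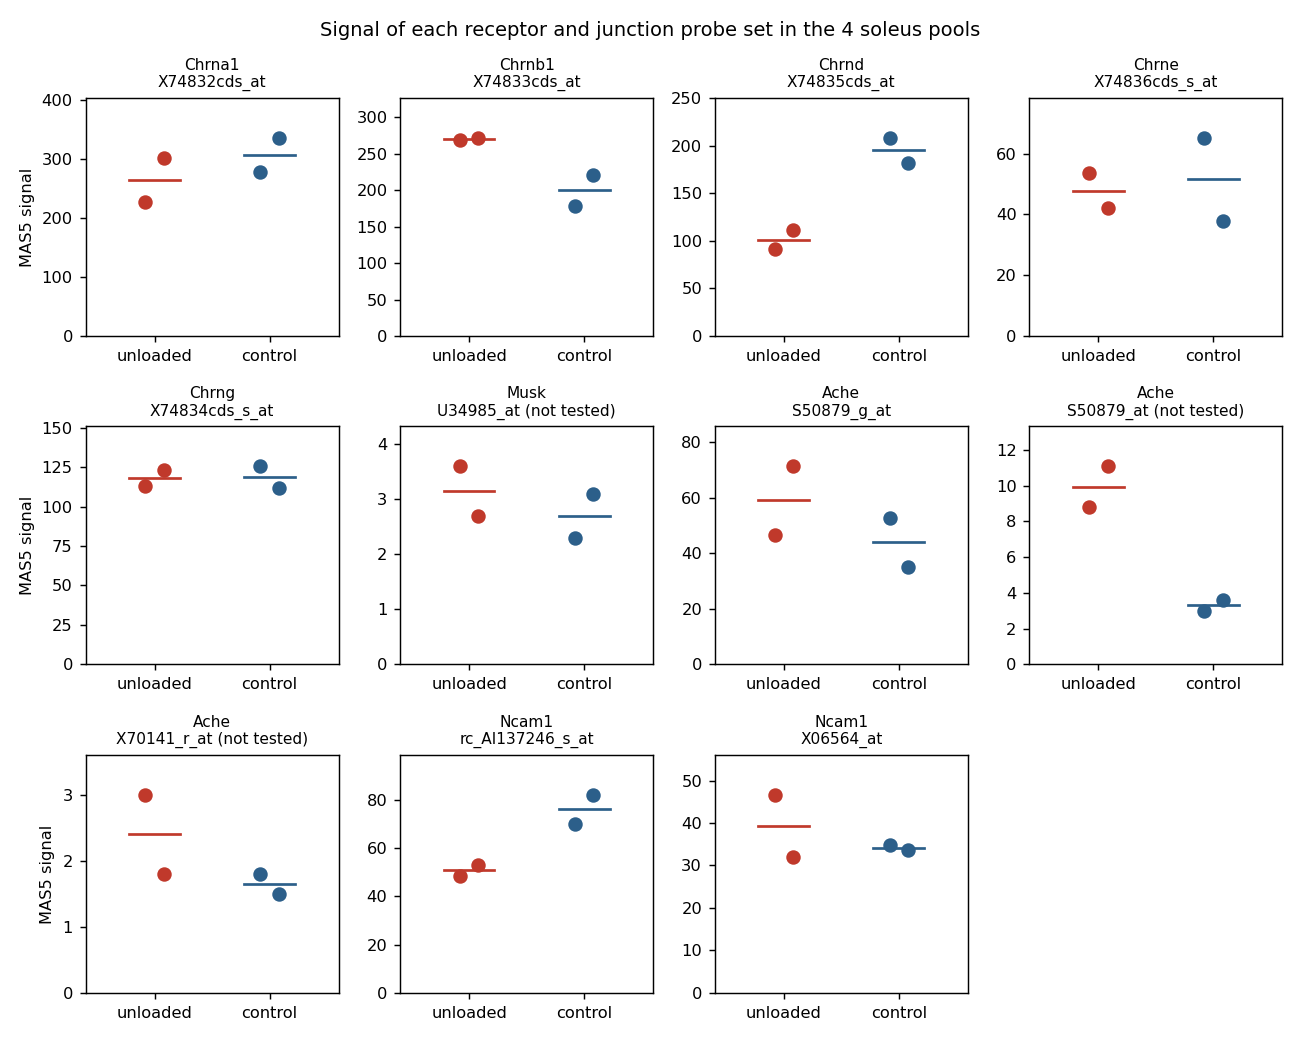
MAS5 signal (vertical axis, linear, from 0, own scale per panel) of the 11 probe sets of the 8 genes; each point is 1 pool (pool 1 left, pool 2 right), bars are group means, unloaded in red and control in blue. Chrnd lies at 91.4 and 111.1 in the unloaded pools, below 208.7 and 181.9 in the control pools, while Chrng and Chrna1 overlap.

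Chrnd encodes the delta subunit, which sits in both the adult and the fetal receptor. Its probe set (X74835cds_at) read 91.4 and 111.1 in the unloaded pools, against 208.7 and 181.9 in the control pools. Both unloaded pools lay well below both control pools, and the gap between the groups was wider than the gap inside either. The means were 101 ± 13.9 in unloaded and 195 ± 19.0 in control soleus (SD, n = 2 pools each). On the log2 scale Chrnd fell by 0.89, which is 1.86-fold (SE 0.14, 95% interval -1.22 to -0.57, limma adjusted p = 0.0121). The 4 pairings of an unloaded with a control pool gave -1.12 to -0.67, while pools of one group were 0.26 apart in unloaded and 0.19 apart in control soleus. By p-value Chrnd ranked at 108 of 5257 probe sets, and 1.37% of tested probe sets had a lower change. In whole muscle RNA, fewer cells or nuclei of a type and less RNA from each cannot be told apart.

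The Chrnd call needed all 4 arrays. Without unloaded pool 1 the change was -0.76 (adjusted p = 0.121), without unloaded pool 2 it was -1.02 (0.0578), without control pool 1 it was -0.80 (0.0984) and without control pool 2 it was -0.99 (0.0644). The direction could not turn in these fits, since both unloaded pools lay below both control pools, while the call was lost each time. This was common in these data: of the 276 probe sets that passed with 4 arrays, 41 passed whichever array was left out, and 153 passed in none of these 4 fits. Testing dim probe sets too, with no filter, left the change as it was and gave an adjusted p of 0.059.

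**Figure D2:**
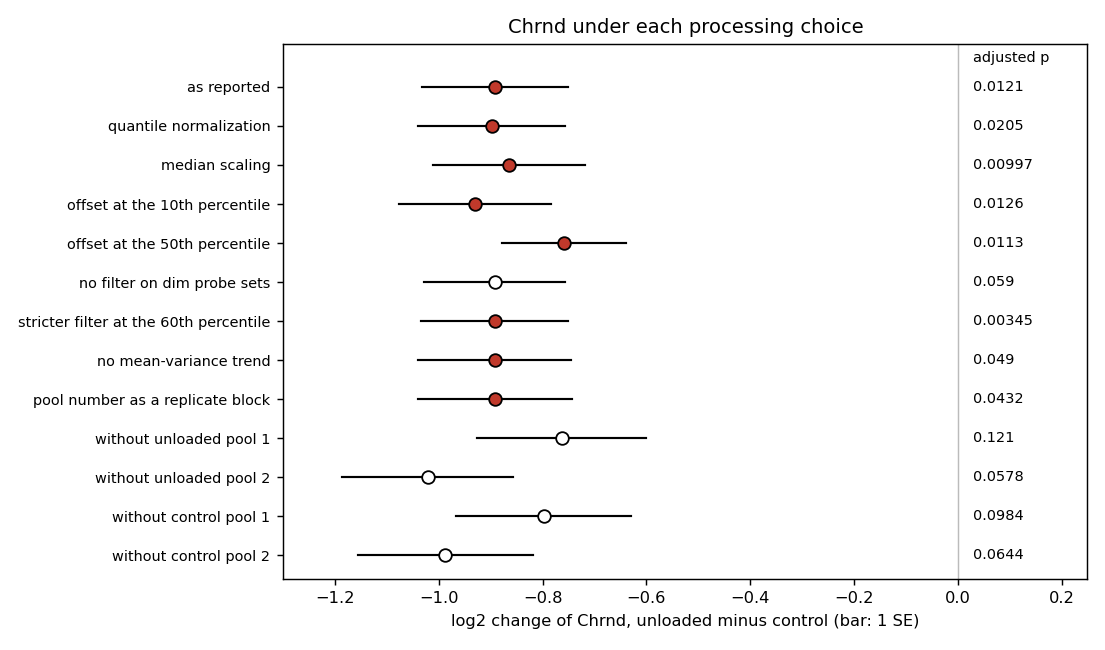
Log2 change of Chrnd, unloaded minus control (horizontal axis; bar, 1 SE), in the reported fit and 12 others, with the limma adjusted p at the right; filled points are under 0.05. All points lie between -1.02 and -0.76, and the 4 fits with 1 pool left out are above the threshold.

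Chrng encodes the gamma subunit of the fetal receptor and is the next gene to Chrnd on chromosome 9 of GRCr8. Its signals were 113.0 and 123.4 in the unloaded pools, against 125.6 and 111.6 in the control pools. The groups overlapped fully. The change was 0.00 (SE 0.13, limma adjusted p = 0.993). The 95% interval ran from -0.30 to 0.30, and changes inside it could not be seen with 4 arrays. The sign turned in 3 alternatives, at up to 0.08 without control pool 1.

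Chrne encodes the epsilon subunit, which takes the place of gamma in the adult receptor and is made by the nuclei beneath the nerve ending. It read 53.5 and 42.0 in the unloaded pools, against 65.3 and 37.9 in the control pools. The control pools enclosed the unloaded ones. The change was -0.06 with a wide interval, -0.62 to 0.49 (SE 0.24, limma adjusted p = 0.923), and without control pool 1 it was 0.27. The probe sets of Chrne and Chrng both carry the suffix that Affymetrix gave to sets whose probes can match more than one related transcript.

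Chrna1 encodes the alpha subunit, which carries the acetylcholine binding face and is present in every muscle receptor. Its signals were 227.6 and 300.9 in the unloaded pools, against 276.9 and 335.8 in the control pools. Unloaded pool 2 was above control pool 1, so the groups overlapped, although the group mean was lower in unloaded soleus. The change was -0.21 (SE 0.16, 95% interval -0.58 to 0.15, limma adjusted p = 0.503). It was -0.02 without unloaded pool 1, -0.41 without unloaded pool 2, -0.35 without control pool 1 and -0.08 without control pool 2.

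Chrnb1 encodes the beta subunit, whose phosphorylation downstream of Musk is known to tie the receptor to its anchor. It read 269.4 and 272.2 in the unloaded pools, against 178.7 and 221.4 in the control pools. Both unloaded pools were above both control pools and close to each other, while the control pools were 0.30 apart on the log2 scale. The change was 0.43 (SE 0.13, 95% interval 0.13 to 0.73, unadjusted p = 0.0106), and it did not pass after adjustment in limma (0.112). Over 14 alternatives the value ran from 0.28 to 0.58. Its sign could not turn with an array left out, since the groups were apart, and some settings leave the change as it is. It was under the threshold in none (lowest limma adjusted p with all 4 arrays 0.0663).

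The subunits were also set against each other inside each array. The difference of log2 signals between Chrnb1 and Chrnd was 1.47 and 1.23 in the unloaded pools, against -0.21 and 0.27 in the control pools. Its shift of 1.32 was the widest of the 10 subunit pairs. For Chrnd minus Chrng, the neighbouring genes, the difference was -0.28 and -0.14 in the unloaded pools, against 0.69 and 0.66 in the control pools. The pools of a group lay close together there, and the shift was -0.89. Chrne minus Chrng, the adult against the fetal subunit, gave -0.97 and -1.38 in the unloaded pools, against -0.86 and -1.36 in the control pools. These groups overlapped, with a shift of -0.06. The groups were apart for 6 of the 10 pairs. For single probe sets that share is 50.8%, and no share over all pairs of probe sets was taken. All 4 pairs with Chrnd are among them, which restates the fall of Chrnd and adds no evidence for it. Chrna1 with Chrnb1 and Chrnb1 with Chrng are among them too, and restate the gap of Chrnb1 in the same way. A two-sided exact permutation test of 2 pools against 2 cannot go below p = 0.333, which those 6 pairs reached (0.556 after adjustment over the 10 pairs). The sign and size of such a difference depend on the probes, so only its shift between groups can be read.

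**Figure D3:**
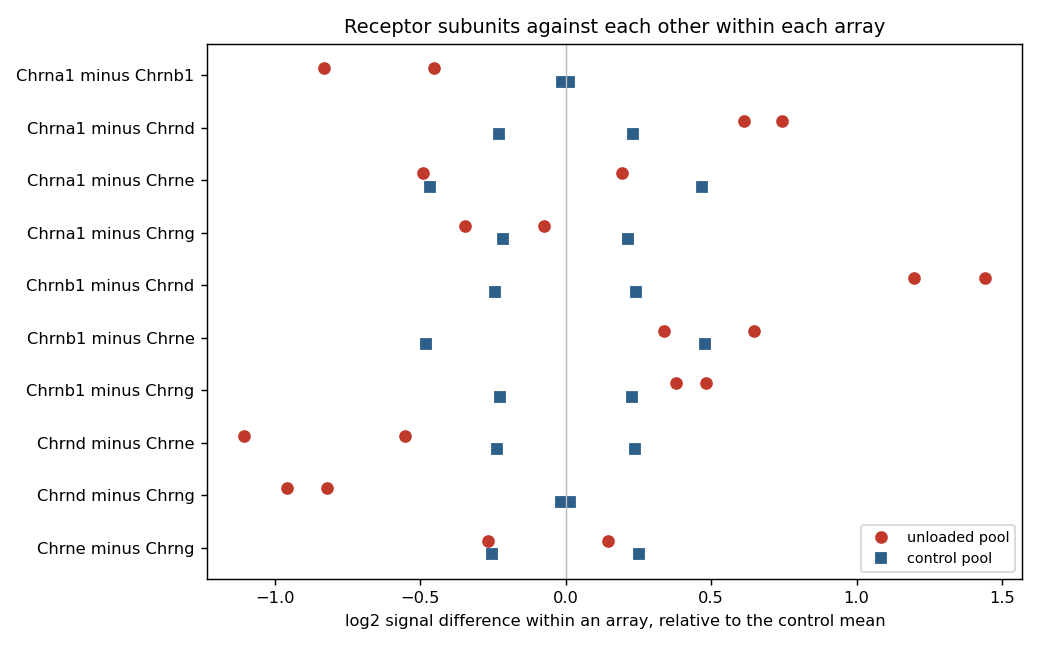
Difference in log2 signal between 2 receptor subunits within an array, set relative to the mean of the control pools (horizontal axis), for the 10 pairs; red circles are unloaded pools, blue squares control pools. The 4 pairs with Chrnd have their unloaded pools apart from the control pools, and Chrnb1 minus Chrnd is shifted by 1.32.

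Musk, the kinase that receives the agrin signal and clusters receptors, was read by 1 probe set at 3.6 and 2.7 in the unloaded pools, against 2.3 and 3.1 in the control pools. These signals overlap and lie among the dimmest of the array, with 7.35% to 11.6% of probe sets as dim or dimmer. Musk was not tested for this reason, and no statement on its level follows from these values.

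Ache encodes acetylcholinesterase, which ends transmission by splitting acetylcholine in the cleft. The brightest of its 3 probe sets (S50879_g_at) read 46.8 and 71.5 in the unloaded pools, against 52.8 and 35.2 in the control pools. The groups overlapped, with a change of 0.36 (SE 0.24, 95% interval -0.19 to 0.91, limma adjusted p = 0.444). The pools of a group lay farther apart than that, by 0.53 in unloaded and 0.48 in control soleus on the log2 scale. A dim set from the same cDNA (S50879_at) read 8.8 and 11.1 in the unloaded pools, against 3.0 and 3.6 in the control pools. Here the groups were apart, with a change of 0.62, yet all values were near or below the offset of 9. In the fit without a filter this set had an unadjusted p of 0.00474 and did not pass (adjusted p = 0.125). The third set (X70141_r_at) read 3.0 and 1.8 in the unloaded pools, against 1.8 and 1.5 in the control pools, which is too dim to read. None of the 3 sets passed. All had higher means in unloaded soleus, but the sets from the same cDNA are not separate readings and the third is too dim to read.

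Ncam1 is a neural cell adhesion molecule that adult fibres keep mostly at the junction, and that satellite cells and non-myelinating Schwann cells also carry. Its brighter probe set (rc_AI137246_s_at) read 48.5 and 53.0 in the unloaded pools, against 69.8 and 82.1 in the control pools. Both unloaded pools lay below both control pools. The change was -0.50 (SE 0.15, 95% interval -0.86 to -0.15, unadjusted p = 0.0116), and it did not pass in limma (adjusted p = 0.118). It ran from -0.61 to -0.37 over 14 alternatives. With the groups apart, leaving out an array could not turn its sign, and some settings leave the change as it is. The other probe set (X06564_at) read 46.7 and 32.1 in the unloaded pools, against 34.8 and 33.6 in the control pools, where the control pools fell between the unloaded ones. That set gave 0.15 (SE 0.20, 95% interval -0.32 to 0.61, limma adjusted p = 0.746), and -0.07 without unloaded pool 1. The brighter set carries the same Affymetrix suffix as the probe sets of Chrne and Chrng. The 2 sets were made from different cDNA entries, and which transcript forms each one reads was not tested.

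The values of Schwann cell and satellite cell markers follow. The 9 Schwann cell markers with a probe set summed to 995 and 1047 in the unloaded pools, against 1074 and 1047 in the control pools, and none of the 6 tested passed. Their defining factor Sox10 was near 0 on all arrays, at 2.2 and 2.6 in unloaded and 2.6 and 4.0 in control pools. Most of the Schwann cell sum was Pmp22 (508.2 and 521.3 in unloaded, 540.8 and 599.2 in control pools) and Ngfr (253.0 and 247.3, against 298.5 and 227.5). The list does not separate non-myelinating from myelinating Schwann cells. The 3 satellite cell markers with a probe set (Met, Vcam1 and Sdc4) summed to 702 and 918 in the unloaded pools, against 1118 and 735 in the control pools, with the groups overlapping. These sums take the brightest probe set of each gene, and nearly all of the last one is Sdc4. A second Sdc4 set, almost as bright, read 576.9 and 721.3 in the unloaded pools, against 985.2 and 917.6 in the control pools. Both unloaded pools were below both control pools there, and it fell by 0.55 (SE 0.12, limma adjusted p = 0.0429). The brightest Sdc4 set gave -0.18 (SE 0.21), Vcam1 -0.13 (SE 0.21) and Met 0.03 (SE 0.19). A dim Sdc4 set that was not tested gave 0.43. Over 8 marker lists, none of 35 tested marker genes passed in limma on its brightest set. Of these 35, 4 had an unadjusted p under 0.05, beside 19.9% of all genes taken by their brightest tested set. Over all 58 tested sets of these genes 3 passed, beside 5.25% of all tested probe sets. They were the second Sdc4 set, 1 of the fibroblast marker Dcn (0.87, SE 0.11) and 1 of the smooth muscle marker Acta2 (0.82, SE 0.15). The part of these cell types in the Ncam1 values was not tested.

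Over the whole set, 1 of 8 tested probe sets passed, lower in unloaded soleus. Over all tested probe sets limma called 5.25% in either direction, made up of 2.66% lower and 2.59% higher. No member passed as higher, and 1 was higher at an unadjusted p under 0.05. In all 3 of 8 (Chrnd, Chrnb1 and one set of Ncam1) had such a p, beside 20.8% of all tested. The groups did not overlap for the same 3 of 8, beside 50.8% of all tested (25.3% with the unloaded pools lower and 25.5% with them higher). The median change of the 8 was -0.03, beside 0.00 over all tested probe sets. The 3 untested sets, 1 of Musk and 2 of Ache, enter none of these counts. With so few members, 1 of 8 is too small a count to be set apart from the 5.25% of the array.

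**Figure D4:**
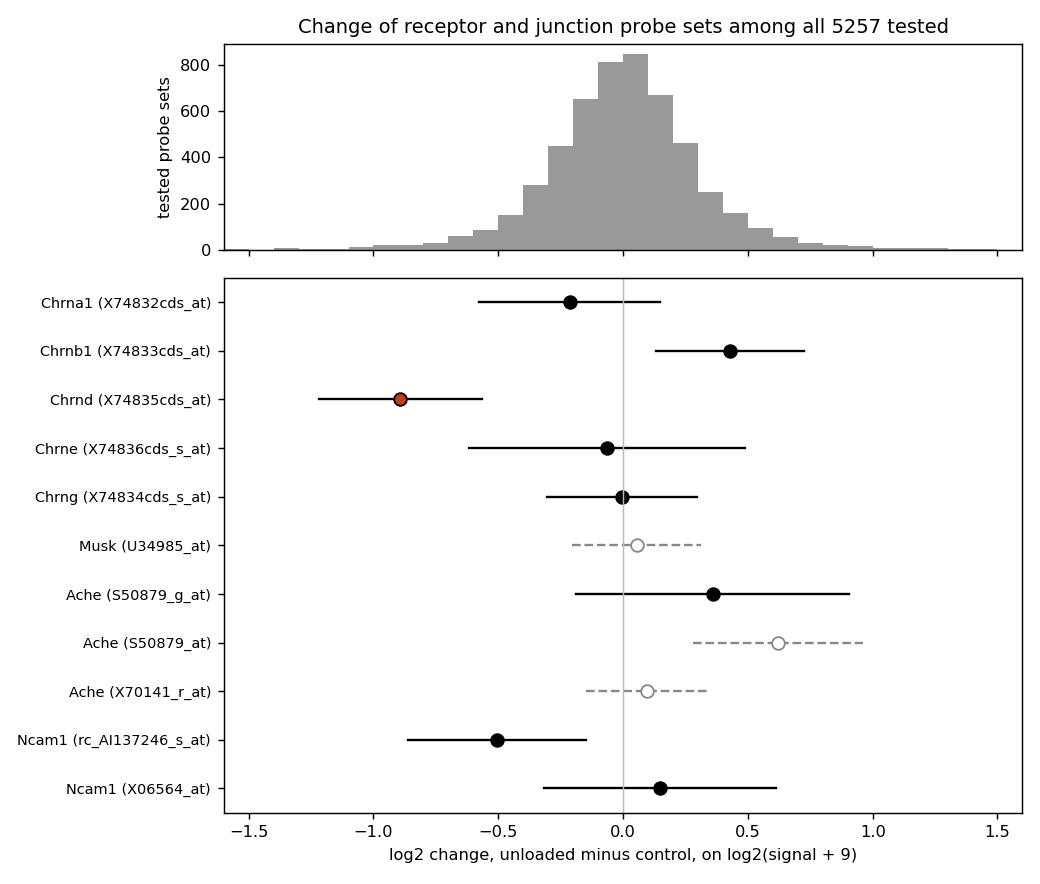
Lower panel: log2 change, unloaded minus control (horizontal axis), of each probe set with its 95% interval; red passed, black did not, open grey points with dashed intervals were not tested and take theirs from the fit without a filter. Upper panel: number of all tested probe sets per change of 0.1 (30 beyond 1.6 in size are not drawn). Chrnd at -0.89 lies in the lower tail, and Chrne, Chrng and Chrna1 have intervals that include 0.

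Other genes of the synapse were read from lists. In these, a gene is counted by its brightest tested probe set, and limma called 4.7% of 3152 genes counted that way. Of 27 listed postsynaptic organisers and anchors, 14 had a probe set and 11 were tested. None passed, and 3 had an unadjusted p under 0.05, beside 19.9% of all genes counted that way. The change was below 0 in 9 of 11, beside 48% of all genes (median -0.25), which is a count with no test. Dystrophin (Dmd), which links the cytoskeleton to the membrane, read 41.1 and 35.4 in the unloaded pools, against 67.9 and 58.9 in the control pools. Its groups were apart, but the change of -0.62 (SE 0.16) did not pass (adjusted p = 0.0781). Utrophin (Utrn), the dystrophin relative concentrated at the junction, had higher signals, at 120.9 and 128.2 in the unloaded pools, against 91.0 and 99.4 in the control pools (0.36, SE 0.13, limma adjusted p = 0.167), while a dimmer set that was not tested gave -0.57. Colq, the collagen tail that anchors acetylcholinesterase in the cleft, read 231.1 and 350.7 in the unloaded pools, against 408.6 and 360.2 in the control pools (-0.42, SE 0.18, limma adjusted p = 0.245). The muscle sodium channel Scn4a, dense in the folds of the junction, gave -0.31 (SE 0.11, adjusted p = 0.174). The agrin gene Agrn gave 0.06 (SE 0.13).

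Of 14 genes known to respond to denervation, 8 were tested, 2 rose and 2 fell (median change -0.01). Gadd45a, a stress and cell-cycle gene induced by denervation, rose with 439.3 and 490.9 in the unloaded pools, against 256.6 and 245.3 in the control pools (0.87, SE 0.11, limma adjusted p = 0.00457). Myogenin (Myog), an E-box factor known to activate receptor subunit genes, rose with 337.0 and 330.4 in the unloaded pools, against 218.6 and 190.7 in the control pools (0.68, SE 0.11, adjusted p = 0.0143). For both, the unloaded pools lay clear above the control pools. The 2 genes that fell were the ubiquitin ligase Trim63 (-0.59, SE 0.11, adjusted p = 0.0262) and Myh3, annotated as embryonic myosin (-0.52, SE 0.09, adjusted p = 0.0137). As background, denervation is known to raise Gadd45a, Myog and Trim63. Runx1 (0.05, SE 0.14), Myod1 (-0.07, SE 0.19), Igfbp5 (0.27, SE 0.14) and Cdkn1a (-0.15, SE 0.40) did not pass. Another tested set of Cdkn1a read 43.6 and 37.2 in the unloaded pools, against 55.5 and 55.6 in the control pools. Its groups were apart, and it did not pass either (-0.39, SE 0.16, limma unadjusted p = 0.043, adjusted p = 0.225). With 1 array left out, Gadd45a passed without unloaded pool 1 or control pool 1, Myog passed without control pool 1 (adjusted p = 0.0485), and neither Trim63 nor Myh3 passed in any of these fits (adjusted p from 0.0644 to 0.193). Without unloaded pool 2 or control pool 2 none of the 4 passed (for Gadd45a 0.064 and 0.0561). With no filter, and with no mean-variance trend, Gadd45a alone passed.

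Nicotinic subunits of nerve cells were mostly dim. Of 10 with a probe set, 2 were bright enough to test and neither passed: Chrna7 gave 0.05 (SE 0.18) and Chrnb4 -0.05 (SE 0.14), with no p under 0.05 before adjustment on these sets. A dimmer tested set of Chrna7 read 24.4 and 19.0 in the unloaded pools, against 40.3 and 35.1 in the control pools. Its groups were apart, and it did not pass (-0.61, SE 0.20, unadjusted p = 0.0148, limma adjusted p = 0.132). Of 15 listed genes of the motor nerve terminal, whose transcripts lie mainly in the distant cell body, 10 were tested. None passed in limma, and none had an unadjusted p under 0.05. Stx1a, a release protein, gave 0.38 (SE 0.16, adjusted p = 0.243), Snap25 gave -0.45 (SE 0.20, adjusted p = 0.256), the calcium channel Cacna1a gave 0.21 (SE 0.15) and Chat, which makes acetylcholine, gave -0.45 (SE 0.39).

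**Figure D5:**
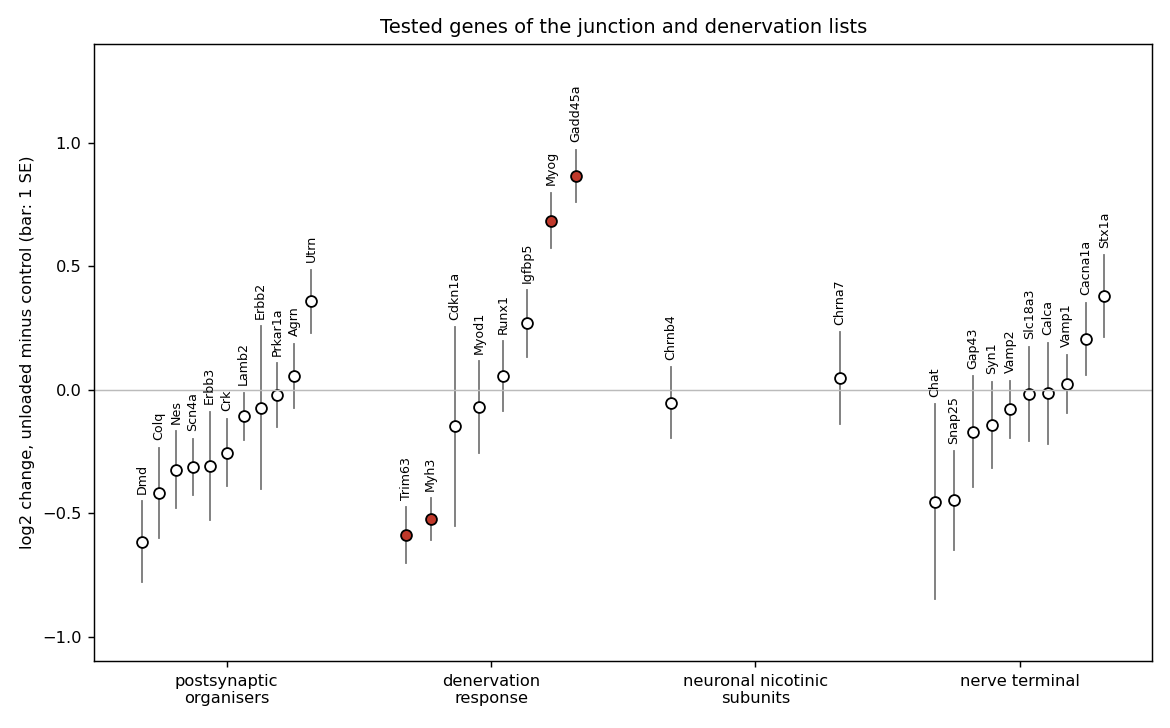
Log2 change, unloaded minus control (vertical axis; bar, 1 SE), of the 31 tested genes of the 4 lists, ordered by change within each list; filled red points passed at an adjusted p under 0.05. The 4 that passed, Gadd45a, Myog, Myh3 and Trim63, are in the denervation list, on both sides of 0.

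The pattern of Chrnd over the 4 arrays was compared with that of 4350 other tested single-gene probe sets, by the Euclidean distance between log2 signals after each set's own mean was removed. The closest was Fhl2, a LIM-domain protein of striated muscle, at a distance of 0.05. It read 284.2 and 351.9 in the unloaded pools, against 639.2 and 573.1 in the control pools (-0.92, SE 0.13, limma adjusted p = 0.0072). Next came the insulin receptor substrate Irs1 (distance 0.05), the secretin gene Sct (0.10), Acadsb, an enzyme of branched-chain amino acid breakdown (0.11), and the heme oxygenase Hmox1 (0.12). Their changes ran from -0.97 to -0.81. With 4 arrays in 2 groups many probe sets come close in this measure, and closeness is a description of these arrays.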

How the data were processed

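Total RNA from the soleus of female rats was labelled with biotin and read on 4 Affymetrix arrays (2 groups, 2 pools each). The authors deposited 1 table of linear intensity values, made with MAS5 per the submitters' processing notes (version and settings not given in the sources used here). Trimmed means (2% at each end) were 150.2 or 150.3 on every array. Low MAS5 signals carry more noise, and per-array scaling assumes a like total signal in both groups. The number of arrays limits the precision.

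Of 8799 probe sets, 59 controls were left out. Symbols came from the platform annotation, updated by gene ID to RefSeq (GRCr8): 7006 probe sets had 1 symbol, 308 several and 1426 none, and none of those with several held a member. Signals were used as log2(signal + 9), 9 being the 25th percentile. The 5257 probe sets whose mean reached 21.0, the 40th percentile, were compared between groups with limma 3.58.1 in R 4.3.3 (lmFit, eBayes with a mean-variance trend; 2 residual and 5.80 prior degrees of freedom), adjusted by Benjamini-Hochberg. The fit was tested on simulated data. The members, lists and tests were chosen with earlier results of these data known. Named genes were all members, each list gene that passed with up to 4 others of smallest p, and the 5 probe sets closest in pattern to a member that passed. Muscle and cell markers, Agrn and second sets of Chrna7 and Cdkn1a are named beyond that rule, after their values were seen. Alternatives were quantile and median scaling, offsets, filters, no trend, a block for pool number, each array left out, other thresholds and, for the lists, averaging a gene's probe sets. Figures were drawn with matplotlib 3.10.9.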

Additional observations from a re-analysis of the deposited data

How the results depend on the processing

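The count of receptor and junction probe sets past the threshold was 1 (Chrnd) in the reported fit and in 8 of 14 alternatives. It was 0 with no filter on dim probe sets and 0 at an adjusted p under 0.01, and 0 to 0 with 1 array left out. For all probe sets, 276 passed in the reported fit, and 90 (42 higher, 48 lower) with no filter, 113 (52 and 61) with no mean-variance trend, 165 (78 and 87) with the pool number as a replicate block, 458 at an adjusted p under 0.10 and 97 under 0.01, and 67 to 84 with 1 array left out. Of the list genes 4 passed, against 1 with no filter, 1 with no mean-variance trend, 1 at an adjusted p under 0.01 and 0 to 2 with 1 array left out. Leaving out an array leaves fewer samples, and for the other settings the cause was not tested. The labels do not say what a pool number shares, and same-numbered pools did not deviate together (correlation -0.04 over 5257 probe sets). With it as a replicate block Chrnd passed (adjusted p = 0.0432), the count of members stayed at 1, and the list count was 3, with Trim63 lost (adjusted p = 0.0668). The sign turned for 3 probe sets, never past the threshold: with 1 array left out Chrne ranged from -0.40 to 0.27 (above 0 without unloaded pool 2 or control pool 1), Chrng from -0.083 to 0.076 (above 0 without unloaded pool 1 or control pool 1) and the dimmer tested Ncam1 set from -0.072 to 0.37 (below 0 without unloaded pool 1), and Chrng was 0.024 with median scaling. The stricter filter gave no value for Chrne, the brightest Ache set and that Ncam1 set. Musk and the other Ache sets were read with no filter alone. Dim signals limit what can be said of Musk and Ache.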
